A study of Mus musculus with 18 samples.

Results

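Chemokines that attract eosinophils, basophils and type 2 T cells were followed in mouse bone marrow-derived macrophages given interleukin-4 (IL-4). The 5 genes were Ccl24 and Ccl11, which encode the eotaxins, Ccl17 and Ccl22, which encode the ligands of the receptor CCR4, and Ccl8, which encodes a ligand of CCR8. They were chosen by their symbols on the array, which carried 6 probes for them among 41174 probes that are not controls, 2 of these for Ccl24 and 1 for each other gene. Of the 20827 genes named on the array, 15285 had a probe well above background on every array of at least 1 group and were tested. Among the 5 chemokine genes, Ccl24, Ccl8 and Ccl17 met this condition, and Ccl11 and Ccl22 did not.

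The macrophages came from C57BL6/J mice of 8 to 12 weeks that lacked the transcription factor IRF4 (Irf4-/-) or carried 1 deficient allele (Irf4+/-). The Irf4+/- cells were the control, so no wild-type cells entered the comparison. Marrow of several animals (labelled 2 males and 1 female) was pooled and grown with human CSF1 at 200 ng/ml, and from day 7 the cells were cultured with 10 ng/ml of IL-4, which lasted 4 h or 18 h, or without it for 18 h (mock). Each of the 6 groups held 3 arrays, 1 from each of 3 independent experiments with littermates, called A, B and C here. There was no 4 h mock, so the 4 h response was read against the 18 h mock.

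Chemokines are small secreted proteins that guide leukocytes through G protein-coupled receptors. IL-4 binds its receptor on macrophages, Janus kinases phosphorylate STAT6, and STAT6 activates a gene programme known as alternative activation. CCL24 and CCL11 draw eosinophils through CCR3, CCL17 and CCL22 draw type 2 helper and regulatory T cells through CCR4, and mouse CCL8 draws type 2 T cells through CCR8. IRF4 is itself induced by IL-4 and takes part in the alternative activation of macrophages.

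All levels are log2 of the scanner's processed signal minus log2 of that array's 75th percentile, which lay between 719.57 and 1971.84 intensity units. Between 63.4% and 74.4% of the spots on an array were well above background, and no chemokine probe was saturated. All 8 macrophage markers examined, among them Csf1r and Adgre1, were well above background on all 18 arrays. The Irf4 probe read -1.16, -0.36 and -1.80 in the Irf4+/- mock cultures of experiments A, B and C and -0.98, -0.54 and -0.82 in the Irf4-/- mock cultures. It was not lower in the Irf4-/- cells (log2 difference 0.33 ± 0.393, SE, adjusted p = 1). Where this probe lies with respect to the deletion was not established, so it does not check the genotype labels. In experiment A the genotypes lay on different slides and scan days, in B on different slides of the same scan day, and in C on 3 slides of 1 scan day. A lower level in these bulk cultures can come from fewer expressing cells or from less RNA per cell, which cannot be told apart here.

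Ccl24, which encodes eotaxin-2, rose strongly after IL-4 in both genotypes. Its level in Irf4+/- mock cultures was -3.87, -3.53 and -5.01 in experiments A, B and C. The 4 h cultures with IL-4 read 2.14, 0.19 and 0.14, and the 18 h cultures 3.13, -0.44 and 0.47. The Irf4-/- mock cultures stood at -4.54, -5.03 and -4.70. Every IL-4 array was higher than every mock array in both genotypes, and the highest values came from experiment A. In the Irf4-/- cells the level was 1.71, -1.54 and 0.01 at 4 h and 1.27, -1.81 and -0.31 at 18 h. Over the 12 IL-4 arrays the lowest level was -1.81, which was 1.72 above the highest of the 6 mock arrays. The processed signal itself spanned 28.1 to 84.9 intensity units without IL-4 and 230 to 6349 with it.

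The increase of Ccl24 in Irf4+/- cells was 31.1-fold at 4 h (log2 difference 4.96 ± 0.985, SE, limma adjusted p = 0.00818) and 36.5-fold at 18 h (5.19 ± 0.985, adjusted p = 0.00577). In Irf4-/- cells it was 28.2-fold at 4 h (4.82 ± 0.985, adjusted p = 0.0108) and 22.2-fold at 18 h (4.47 ± 0.985, adjusted p = 0.0181). All 3 experiments showed the increase in each of these comparisons, with log2 differences of 6.01, 3.71 and 5.15 at 4 h and 7.00, 3.09 and 5.48 at 18 h in the Irf4+/- cells of A, B and C. The second Ccl24 probe, well above background on 17 of 18 arrays, rose by 4.70 and 4.82 in Irf4+/- cells and by 4.96 and 4.43 in Irf4-/- cells, with adjusted p of 0.00591, 0.00475, 0.00445 and 0.0102. These p came from a separate limma fit of the 27514 kept probes, adjusted over probes rather than genes. Ccl24 ranked 23rd and 22nd from the highest log2 difference of the 15285 genes at 4 h and 18 h in Irf4+/- cells, and 24th and 30th in Irf4-/- cells.

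Ccl24 and Ccl8 were the 2 of 3 tested chemokines that changed in each IL-4 comparison, against 4.3% and 4.19% of all 15285 genes at 4 h and 18 h in Irf4+/- cells and 3.96% and 3.6% in Irf4-/- cells. By direction, 2.34% and 2.14% of all genes rose and 1.97% and 2.05% fell in Irf4+/- cells at the 2 times, and 2.26% and 2.17% rose and 1.69% and 1.43% fell in Irf4-/- cells. With the experiment as a block these shares were 10.1% and 7.85% higher and 8.31% and 7.86% lower in Irf4+/- cells, and 10.4% and 12.1% higher and 8.05% and 6.67% lower in Irf4-/- cells. The Irf4+/- call for Ccl24 at 18 h was lost when only the 2 groups compared were fitted (adjusted p = 0.0681), and both Irf4-/- calls with normexp background correction (2.88 and 2.45, adjusted p = 0.198 and 0.443). In Irf4-/- cells its call at 4 h was lost without the IL-4 array of A (3.99, adjusted p = 0.0594) or the mock array of B (4.68, adjusted p = 0.0501). At 18 h the Irf4-/- call was lost without the IL-4 array of A (3.69, adjusted p = 0.0866) or C (4.48, adjusted p = 0.0717), or the mock array of B (4.33, adjusted p = 0.0776) or C (4.50, adjusted p = 0.0603). Arrays were left out only of the fit without a block. With the experiment as a block and all 18 arrays, the adjusted p of the 4 Ccl24 increases lay between 0.000101 and 0.000389.

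**Figure D1:**
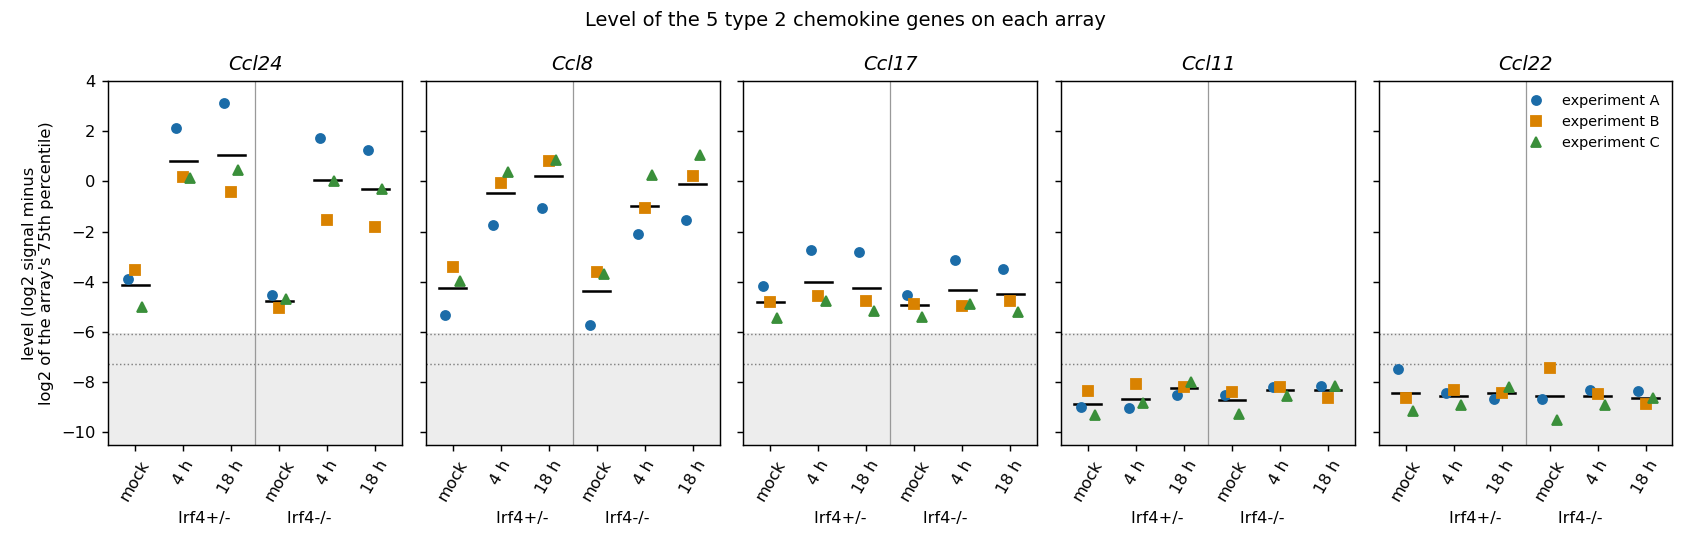
Level of each of the 5 genes on the 18 arrays (y axis, log2 signal minus log2 of the array's 75th percentile; x axis, mock or hours of IL-4 in Irf4+/- and Irf4-/- cells). Symbols are experiments A, B and C, bars are means of 3 arrays, and the dotted lines are the lowest and highest, over the 18 arrays, of the dimmest level called well above background. Ccl24 and Ccl8 stand apart with and without IL-4, Ccl17 stays between -5.44 and -2.75, and Ccl11 and Ccl22 lie under both lines. Levels of different probes are not compared.

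Ccl11, which encodes eotaxin-1, was not well above background on any of the 18 arrays. Its level ran from -9.31 to -8.35 on the 6 mock arrays and from -9.04 to -7.99 on the 12 IL-4 arrays, and its signal never exceeded 5.42 intensity units. On every array it lay below the dimmest probe called well above background there, by 0.70 to 2.30 log2 units. Mock and IL-4 values overlapped, and as both sides are below background no fold is given.

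Ccl8 also rose in both genotypes and at both times. Its level in Irf4+/- mock cultures was -5.31, -3.42 and -3.98 in experiments A, B and C. It was -1.73, -0.08 and 0.37 after 4 h of IL-4 and -1.04, 0.80 and 0.86 after 18 h. Experiment A was the lowest of the 3 in all these groups. The Irf4-/- mock cultures read -5.74, -3.61 and -3.69, the 4 h cultures -2.09, -1.06 and 0.24, and the 18 h cultures -1.55, 0.21 and 1.05. Again mock and IL-4 arrays did not overlap, the lowest IL-4 level lying 1.33 above the highest mock level.

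For Ccl8 the increase in Irf4+/- cells was 13.5-fold at 4 h (log2 difference 3.76 ± 0.861, SE, adjusted p = 0.0203) and 21.7-fold at 18 h (4.44 ± 0.861, adjusted p = 0.00678). Irf4-/- cells showed 10.4-fold at 4 h (3.38 ± 0.861, adjusted p = 0.0395) and 19.0-fold at 18 h (4.25 ± 0.861, adjusted p = 0.0106). Within experiments A, B and C the log2 difference at 18 h was 4.27, 4.22 and 4.84 in Irf4+/- and 4.19, 3.82 and 4.74 in Irf4-/- cells, and at 4 h it was 3.58, 3.34 and 4.35 in Irf4+/- and 3.66, 2.55 and 3.94 in Irf4-/- cells. The 4 h call in Irf4+/- cells was lost without the mock array of A or C (adjusted p = 0.0959 and 0.0559) or the IL-4 array of B or C (adjusted p = 0.0721 and 0.0918). In Irf4-/- cells the 4 h call was lost without the mock array of A, B or C (adjusted p = 0.172, 0.0673 and 0.0692) or the IL-4 array of B or C (adjusted p = 0.0865 and 0.208), and the 18 h call without the mock array of A (0.0547) or the IL-4 array of C (0.0715). Normexp background correction gave 2.79 at 4 h in Irf4+/- cells and 1.69 and 2.63 in Irf4-/- cells (adjusted p = 0.0717, 0.457 and 0.126). With the experiment as a block the adjusted p of these 4 increases lay between 2.95e-07 and 3.99e-06.

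**Figure D2:**
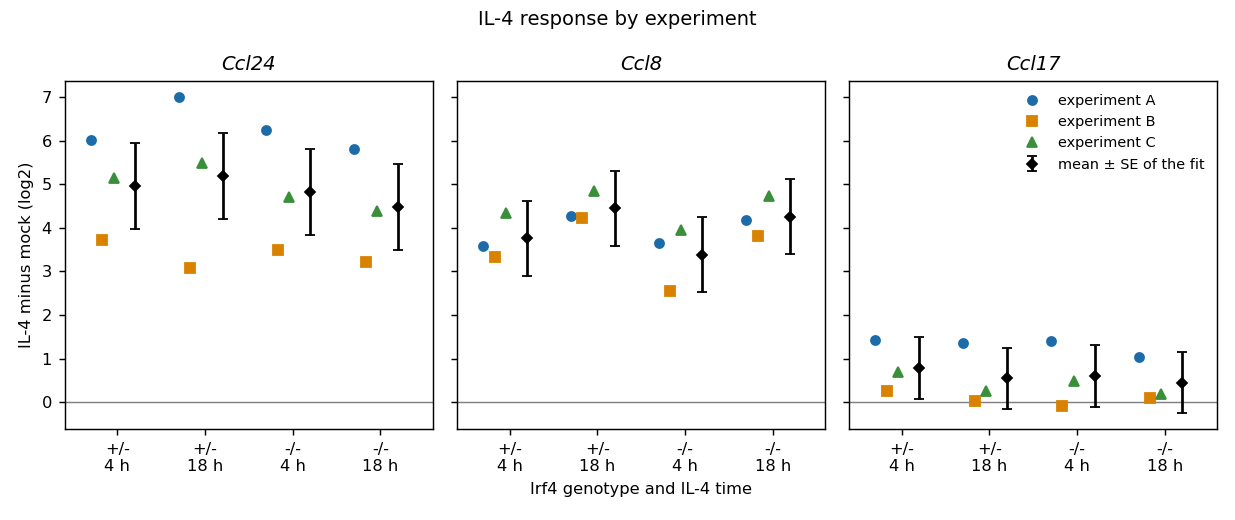
IL-4 minus mock for Ccl24, Ccl8 and Ccl17 (y axis, log2; x axis, Irf4 genotype and hours of IL-4). Coloured symbols are the differences within experiments A, B and C, and black diamonds with bars are the mean and SE of the fit over 18 arrays. The lowest value of Ccl24 and Ccl8 is 2.55, and those of Ccl17 between -0.08 and 1.42.

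Ccl17 was measured well above background on all 18 arrays but did not pass the test after IL-4. Its signal was low on every array, between 26.0 and 138.9 intensity units. In Irf4+/- cells of experiments A, B and C its level was -4.17, -4.81 and -5.44 without IL-4, -2.75, -4.55 and -4.75 at 4 h and -2.81, -4.78 and -5.18 at 18 h. In Irf4-/- cells it was -4.52, -4.87 and -5.39 in mock, -3.11, -4.95 and -4.90 at 4 h and -3.47, -4.76 and -5.19 at 18 h. The IL-4 and mock groups overlapped, and only the IL-4 arrays of experiment A lay above all mock arrays. The log2 difference in Irf4+/- cells was 0.79 ± 0.707 (SE, adjusted p = 0.802) at 4 h and 0.55 (adjusted p = 0.99) at 18 h. In Irf4-/- cells it was 0.61 (adjusted p = 0.816) and 0.45 (adjusted p = 0.852). The 95% confidence interval at 4 h in Irf4+/- cells ran from -0.72 to 2.30. In the fit blocked on the experiment it ran from 0.20 to 1.38 and the adjusted p was 0.0647, and the other 3 comparisons gave adjusted p of 0.226, 0.144 and 0.264. The blocked interval at 4 h in Irf4-/- cells ran from 0.016 to 1.2, and those at 18 h included 0 in both genotypes. Leaving out 1 array moved the 4 h value of Ccl17 between 0.15 and 1.16 in Irf4+/- cells and between 0.0066 and 0.92 in Irf4-/- cells. Within experiment A the log2 difference was 1.42, 1.36, 1.41 and 1.05 in the 4 comparisons, within B it was 0.26, 0.03, -0.08 and 0.11, and within C 0.69, 0.26, 0.49 and 0.20.

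Ccl22, the neighbour of Ccl17 in the genome and the other CCR4 ligand, was well above background on none of the 18 arrays. Its level ran from -9.49 to -7.44 without IL-4 and from -8.89 to -8.21 with it, 0.53 to 2.25 log2 units under the dimmest probe called well above background on the same array. No fold is given, since both sides are below background. The data therefore hold a measured level for 1 of the 2 CCR4 ligands and for 1 of the 2 eotaxins on the array.

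The upstream sequences of Ccl8, which rose, and of Ccl17 and Ccl22, which did not pass or could not be tested, are set side by side. The promoter table used here, from RefSeq (GRCm38.p6), matched these 3 of the 5 genes, and the 250 bases before the listed start lie at chr11:82114935-82115184, chr8:94810203-94810452 and chr8:94745434-94745683, all on the plus strand. Capitals mark matches to the STAT motif TTCNNNGAA, its longer form TTCNNNNGAA that STAT6 prefers, or the composite Ets and IRF motif GGAANNGAAA, searched on both strands together with the IRF motif GAAANNGAAA.
Ccl8: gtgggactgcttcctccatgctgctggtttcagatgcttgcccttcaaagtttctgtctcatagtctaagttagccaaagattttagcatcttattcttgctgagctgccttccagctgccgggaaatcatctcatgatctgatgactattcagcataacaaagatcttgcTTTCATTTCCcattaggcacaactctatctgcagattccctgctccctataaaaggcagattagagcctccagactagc
Ccl17: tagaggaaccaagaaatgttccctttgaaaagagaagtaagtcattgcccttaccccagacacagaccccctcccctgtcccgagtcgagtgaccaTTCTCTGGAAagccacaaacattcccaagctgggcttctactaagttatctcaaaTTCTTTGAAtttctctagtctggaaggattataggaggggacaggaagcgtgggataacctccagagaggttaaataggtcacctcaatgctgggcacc
Ccl22: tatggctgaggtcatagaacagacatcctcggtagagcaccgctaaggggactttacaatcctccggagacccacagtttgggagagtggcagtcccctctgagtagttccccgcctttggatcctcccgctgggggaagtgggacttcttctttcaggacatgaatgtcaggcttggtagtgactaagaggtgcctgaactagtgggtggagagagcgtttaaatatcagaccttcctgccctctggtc
The Ccl17 window held TTCNNNNGAA once, from base -154, and TTCNNNGAA once, from base -99, counted back from the listed start. Of 32817 windows of the same length, 5.85% held the first motif and 7.01% the second. The Ccl8 window held neither of these letters, and had GGAANNGAAA once on the minus strand, from base -79, a motif in 2.3% of windows. GAAANNGAAA, in 2.97% of windows, was in none of the 3, and the Ccl22 window held none of the 4 motifs. A match of letters is not evidence of a bound site. For Ccl17 the listed start lies inside the annotated gene, which begins at base 94809380.

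Between 4 h and 18 h of IL-4 none of the 3 tested chemokines changed. The share of all genes that did was 1.16% in Irf4+/- and 0.582% in Irf4-/- cells, or 11.6% and 8.59% with the experiment as a block, which called none of the 3 either. Ccl24 differed by 0.23 ± 0.985 (SE, 18 h minus 4 h) in Irf4+/- cells and by -0.35 in Irf4-/- cells, both with adjusted p = 1. Ccl8 was higher at 18 h than at 4 h in 3 of 3 experiments of both genotypes, with log2 differences of 0.69 and 0.87 (adjusted p = 1 in both). For Irf4-/- cells this difference of Ccl8 passed the threshold with the slide as a fixed block (adjusted p = 0.0305) or a random block (0.0441). Ccl17 differed by -0.24 and -0.16, with adjusted p = 1 in both.

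No chemokine passed the test between genotypes. Among all genes, 0% were called in mock cultures, 0% at 4 h and 0.0262% at 18 h of IL-4. A fit blocked on the experiment gave 0.0327%, 0.0262% and 0.451%, and again no chemokine was called. Unadjusted p was under 0.05 for 370, 120 and 467 of the 15285 genes. Ccl24 was lower in the Irf4-/- cells in all 3 experiments at 18 h, by 1.86, 1.37 and 0.79 log2 units in A, B and C. The mean of that difference was -1.34 ± 0.985 (SE, adjusted p = 1) with a 95% confidence interval from -3.44 to 0.77, or from -2.71 to 0.034 with the experiment as a block (adjusted p = 0.365). Leaving out 1 array moved it between -2.12 and -0.30.

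At 4 h the same genotype difference of Ccl24 was -0.76 (interval -2.87 to 1.34) and in mock cultures -0.62 (-2.73 to 1.48), lower in 3 and 2 of 3 experiments. The second Ccl24 probe gave -1.46 at 18 h, -0.80 at 4 h and -1.07 in mock cultures. Ccl8 differed by -0.11 in mock, -0.49 at 4 h and -0.30 at 18 h, and Ccl17 by -0.12, -0.30 and -0.22. None of the 9 differences exceeded 2 SE in the fit without the block. With the experiment as a block the Ccl24 difference at 18 h did (-1.34 ± 0.635, SE), with an adjusted p of 0.365. The direction in mock cultures was not shared by the 3 experiments for any of the 3 genes.

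**Figure D3:**
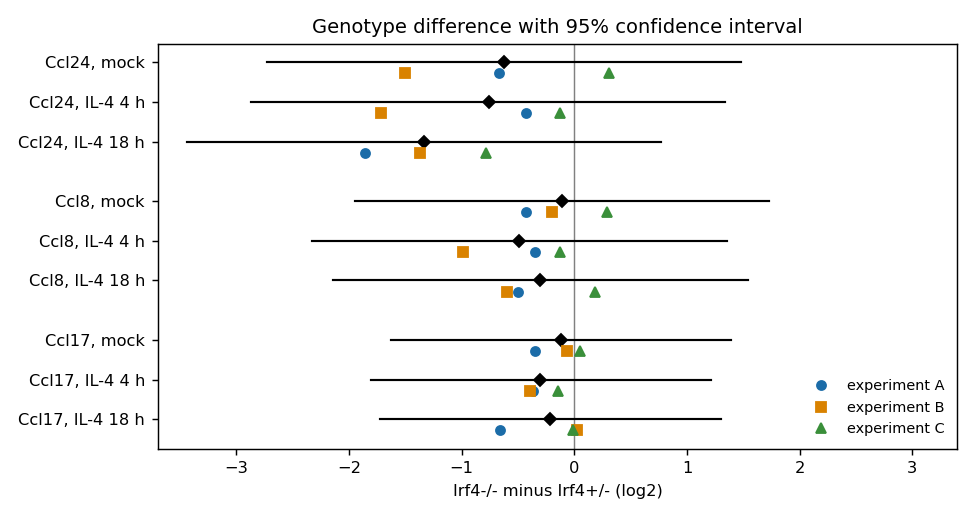
Irf4-/- minus Irf4+/- (x axis, log2) for Ccl24, Ccl8 and Ccl17 without IL-4 and after 4 h or 18 h of IL-4 (y axis). Diamonds and lines are the mean and 95% confidence interval of the fit, and coloured symbols are the differences within experiments A, B and C. All 9 intervals include 0, and all 3 experiments lie below 0 for Ccl24 at both IL-4 times.

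The IL-4 response itself was also compared between genotypes with an interaction term. No gene of the 15285 passed it at 4 h or 18 h (0% in both), and unadjusted p was under 0.05 for 58 and 84 genes. For Ccl24 the response of Irf4-/- cells minus that of Irf4+/- cells was -0.14 ± 1.39 (SE) at 4 h and -0.72 ± 1.39 at 18 h. The corresponding values were -0.38 and -0.19 for Ccl8 and -0.18 and -0.09 for Ccl17, all with adjusted p = 1. The interval for Ccl24 at 18 h ran from -3.69 to 2.26, or from -2.66 to 1.22 with the experiment as a block, which also called no gene.

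The 3 experiments differed from one another in the level of these chemokines. In the fit with the experiment as a block, Ccl24 was lower by 2.00 in B and by 1.54 in C than in A on the log2 scale (F over both terms, adjusted p = 0.0035), and Ccl17 by 1.31 and 1.67 (adjusted p = 2.08e-05). Ccl8 went the other way, 1.72 higher in B and 2.05 higher in C than in A (adjusted p = 3e-06). Such differences between experiments were common, with 73.6% of all genes called by the same test, so the members' calls are not particular to them. This comparison was chosen after the values were seen.

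Averaged over both genotypes, the IL-4 response of Ccl24 was 6.27 in A, 3.38 in B and 4.93 in C, while its mock level was alike in A and B (-4.20 and -4.28). The response of Ccl8 was 3.92, 3.48 and 4.47, although its mock level in A (-5.53) was far below that in B (-3.52) and C (-3.84). Ccl17 was higher with IL-4 by 1.31 in A, 0.08 in B and 0.41 in C.

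**Figure D4:**
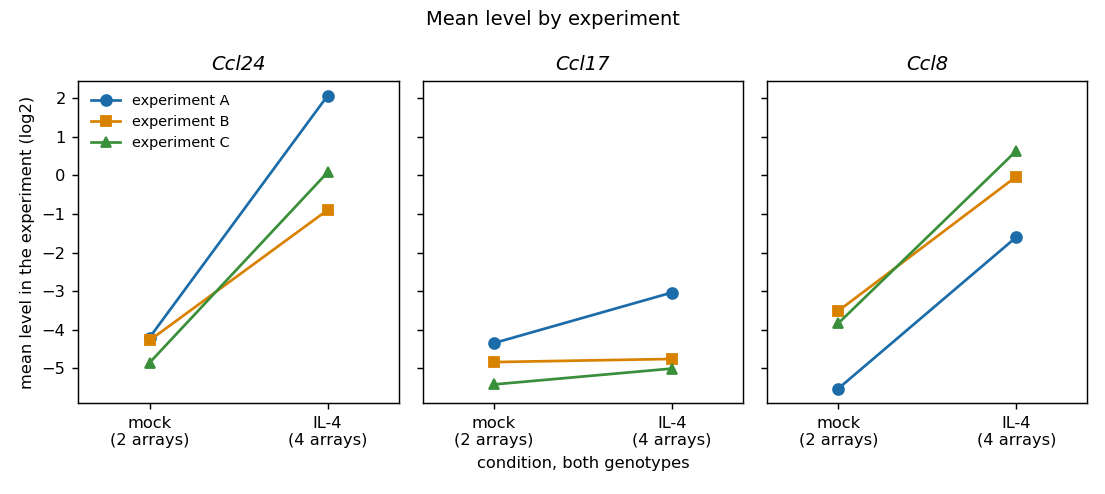
Mean level of Ccl24, Ccl17 and Ccl8 in experiments A, B and C (y axis, log2) without IL-4 (2 arrays each, 1 per genotype) and with IL-4 (4 arrays each). Ccl24 with IL-4 and Ccl17 are highest in A, and Ccl8 is lowest in A.

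Markers of other cell types moved with experiment A. The mean level of 6 of 8 dendritic cell markers, 7 of 8 eosinophil, basophil and mast cell markers, 7 of 7 fibroblast markers, 5 of 5 neutrophil markers on the array, 3 of 4 T and NK cell markers and 3 of 4 B cell markers was highest in A, against 0 of 8 macrophage markers. Of the 36 markers of the 6 other cell types, 31 were highest in A, and of the 19 well above background on all arrays 16 were. Among all tested genes 54.5% were highest in A, and among the 1262 with a mean level within 0.5 of that of Ccl17 the share was 64.7%. The summed dendritic marker level, relative to the 75th percentile, was 0.68 in A, 0.41 in B and 0.36 in C for Irf4+/- mock cultures and 0.43, 0.31 and 0.28 for Irf4-/- mock cultures. With IL-4 it was 0.657, 0.383 and 0.292 at 4 h and 0.611, 0.4 and 0.304 at 18 h in Irf4+/- cells. In Irf4-/- cells with IL-4, C lay above B, with 0.514, 0.255 and 0.387 at 4 h and 0.416, 0.303 and 0.369 at 18 h. Ccr7, a receptor of migrating dendritic cells, averaged -3.36 in A, -5.79 in B and -4.54 in C. The dendritic cell markers not highest in A were Xcr1 (-2.51, -2.71 and -2.50) and Clec9a (-7.06, -6.54 and -7.83, well above background on 4 arrays). Siglech, a plasmacytoid dendritic cell marker, was well above background on no array, and Cd209a, a marker of monocyte-derived dendritic cells, on 3 arrays. Summed neutrophil and progenitor markers stood at 49.0 to 51.6 in the 3 Irf4-/- cultures of A and at 12.4 to 25.6 in the other 15 cultures. Their part in the levels of Ccl17 and Ccl24 was not tested. Without experiment A, Ccl24 and Ccl8 were still called in all 4 IL-4 comparisons, and Ccl17 in none.

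Neighbouring chemokine genes were compared next, since Ccl8 and Ccl11 share a cluster on chromosome 11 with Ccl2, Ccl7, Ccl12 and Ccl1, and Ccl22 and Ccl17 flank Cx3cl1 on chromosome 8. Of 6 listed neighbours 5 were on the array and 4 were tested. None rose and 1 fell in each IL-4 comparison, against the 3.6% to 4.3% of all genes called there. Cx3cl1, which encodes fractalkine, fell in all 4 comparisons. Its log2 difference was -1.22 at 4 h and -2.55 at 18 h in Irf4+/- cells (adjusted p = 0.0275 and 0.000136) and -1.18 and -2.50 in Irf4-/- cells (adjusted p = 0.0367 and 0.000174). The 4 h calls were lost without any IL-4 array of the comparison, without the mock array of C in Irf4+/- or of B or C in Irf4-/- cells (adjusted p from 0.0707 to 0.182), or without all of experiment A (0.0631 and 0.0532). With the experiment as a block Cx3cl1 fell in all 4 comparisons, with adjusted p of 0.000964 and 0.0014 at 4 h and 3.04e-06 and 3.85e-06 at 18 h in Irf4+/- and Irf4-/- cells. Ccl7, a monocyte chemoattractant, read 4.00 ± 1.13 at 4 h in Irf4+/- cells and 3.51 in Irf4-/- cells without passing (adjusted p = 0.0657 and 0.122).

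With the experiment as a block, Ccl7 passed in all 4 IL-4 comparisons (adjusted p between 0.000509 and 0.00374), Ccl2 at 4 h in both genotypes (2.13 and 1.92, adjusted p = 0.0276 and 0.0445) and Ccl12 at 4 h in Irf4+/- cells (1.61, adjusted p = 0.0308). The count of neighbours that rose was then 3 of 4 and 2 of 4 at 4 h and 1 of 4 at 18 h in both genotypes, beside 10.1% and 10.4% of all genes at 4 h and 7.85% and 12.1% at 18 h, so nothing is read from the 18 h count. In the mean over both genotypes, experiment C stood apart for Ccl2 and Ccl7 as A did for Ccl8. Ccl2 averaged 6.61 in the mock cultures of C against 4.02 and 4.09 in A and B, and Ccl7 3.20 against -0.06 and 0.81. The gap lay mainly in Irf4+/- mock cultures, where Ccl2 read 3.32, 2.40 and 6.77 in A, B and C and Ccl7 -0.98, -0.62 and 3.33. In Irf4-/- mock cultures C was closer to B, with 4.71, 5.78 and 6.45 for Ccl2 and 0.87, 2.25 and 3.08 for Ccl7. Ccl1 was well above background on 1 array, and Ccl11, between Ccl7 and Ccl12 in the cluster, on none. So the genes of the chromosome 11 cluster differed in whether a signal was measured, and among those measured Ccl8 alone passed without the block.

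**Figure D5:**
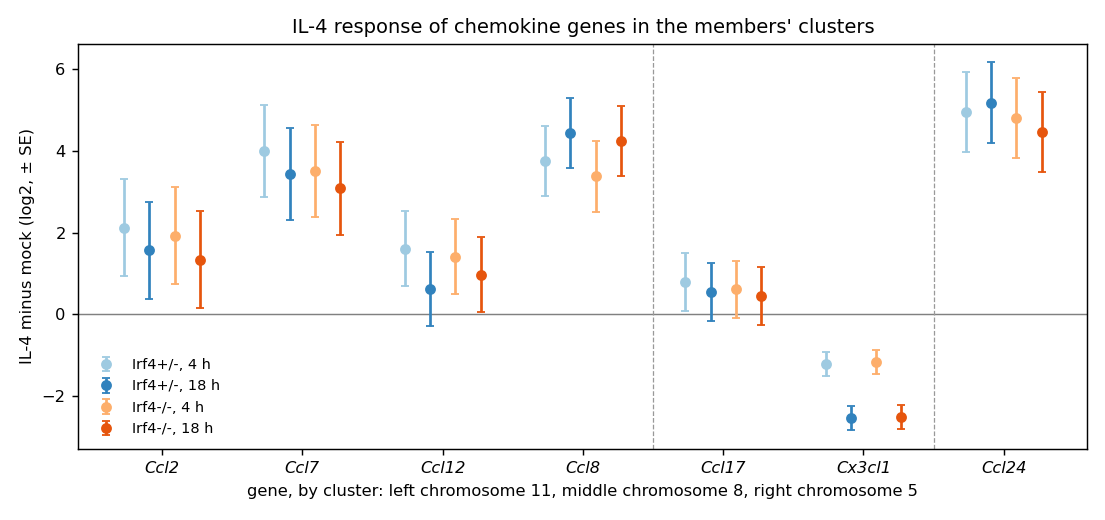
IL-4 minus mock (y axis, log2, mean ± SE of the fit) for the tested chemokine genes of the clusters that hold Ccl8, Ccl17 and Ccl24 (x axis, in the order chromosome 11, 8 and 5), in each genotype and at each time. Ccl8 and Ccl7 both lie above 3, Ccl17 lies below 1, and Cx3cl1 lies below 0 at 4 h and lower at 18 h.

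Of the receptor genes of these chemokines, Ccr2, which encodes a receptor for inflammatory chemokines, fell at 4 h in Irf4+/- cells by 1.80 ± 0.428 (SE, adjusted p = 0.0256). Its call was lost without the mock array of A (adjusted p = 0.0774) or B (0.118) or the IL-4 array of A (0.0791) or C (0.117). In Irf4-/- cells Ccr2 read -1.61 at 4 h without passing (adjusted p = 0.0501). With the experiment as a block Ccr2 was lower in all 4 IL-4 comparisons (adjusted p between 8.93e-06 and 0.000654). Ccr3, the eotaxin receptor, was well above background on all 18 arrays and lay between -3.38 and -1.17. Its log2 difference from mock in Irf4+/- cells was -0.40 (adjusted p = 0.667) at 4 h and 0.11 at 18 h, and in Irf4-/- cells -0.11 and 0.77 (adjusted p = 0.202 for the last). With the experiment as a block Ccr3 was lower at 4 h in Irf4+/- cells (adjusted p = 0.0387) and higher at 18 h in Irf4-/- cells (0.00098). In that fit it was also higher at 18 h than at 4 h in both genotypes (0.51 and 0.88, adjusted p = 0.0178 and 0.00124) and higher in Irf4-/- than in Irf4+/- cells at 18 h (0.97, adjusted p = 0.00526), none of which passed without the block. Ccr4, the receptor of CCL17 and CCL22, was well above background on 9 arrays and Ccr8 on 6.

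Known IL-4 target genes of macrophages rose in the same cultures. Of 7 reference targets 6 rose in each of the 4 comparisons, with a median log2 difference of 6.36 and 5.77 at 4 h and 18 h in Irf4+/- cells and 6.29 and 6.14 in Irf4-/- cells, against medians over all genes between -0.02 and 0.12 and 2.14% to 2.34% of all genes that rose. The call of Mrc1 was lost with quantile normalization or normexp in all 4 comparisons (adjusted p from 0.0554 to 0.249). Single arrays left out also lost it at 4 h in both genotypes and at 18 h in Irf4+/- cells (0.0577 to 0.183). Normexp lost Cdh1 at 18 h in both genotypes (0.051 and 0.1) and Pdcd1lg2 at 18 h in Irf4-/- cells (0.0619). Retnla rose at least 980-fold at 4 h and at least 15600-fold at 18 h in Irf4+/- cells, because its mock signal was not well above background. Chil3 did not pass in Irf4+/- cells (1.12 and 3.36, adjusted p = 0.81 and 0.0917) or in Irf4-/- cells. In the blocked fit it passed at 18 h in both genotypes (adjusted p = 0.000214 and 0.00063), which made 7 of 7 at that time. These lists were chosen with earlier results of the same data known. Of 10 genes of IL-4 signalling, 4 rose and 1 fell at 4 h and 3 rose and 1 fell at 18 h in Irf4+/- cells, and 4 rose and 2 fell, and 3 rose and 1 fell, in Irf4-/- cells, beside 2.14% to 2.34% of all genes that rose and 1.43% to 2.05% that fell. Il4ra, the receptor's alpha chain, rose by 1.34 at 4 h in Irf4+/- cells (adjusted p = 0.0291) and read -0.42 at 18 h, and Il13ra1 changed by -1.12 and -2.12 (adjusted p = 0.0257 and 0.000253). At 4 h the Il4ra call was lost without any mock array or the IL-4 array of B or C (adjusted p from 0.0669 to 0.138), and the Il13ra1 call without the mock array of A or B or any IL-4 array (0.0571 to 0.111). Normexp lost both Il13ra1 calls in Irf4+/- cells, with -0.51 at 4 h and -0.10 at 18 h (adjusted p = 0.806 and 0.873). It also lost those of Il13ra1 in Irf4-/- cells (0.406 and 0.329) and the Il4ra call at 4 h in Irf4+/- cells (1.25, adjusted p = 0.156). With the experiment as a block the genes of IL-4 signalling that fell in Irf4+/- cells numbered 2 at 4 h and 3 at 18 h, beside 8.31% and 7.86% of all genes, and those that fell at 18 h in Irf4-/- cells numbered 3, beside 6.67%. Ccl24 and Ccl8 thus moved in the direction of these targets in both genotypes, and Ccl17 did not pass.

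The genes whose levels most resembled each chemokine over the 18 arrays were taken from 3025 genes whose group means spanned at least 1 log2 unit. Those nearest Ccl24 were Plekhf1 (r = 0.991), Batf3 (0.983) and Cish (0.968). Cish is a feedback inhibitor of cytokine signalling, and Batf3 a transcription factor. Nearest Ccl8 were Patj (0.955), Fam20c (0.954) and Bcar3 (0.954). For Ccl17 they were Hemk1 (0.928), the neutrophil chemokine receptor gene Cxcr2 (0.918) and 2810459M11Rik (0.898), none of which passed the IL-4 test in Irf4+/- cells. The arrays share experiments and groups, so the correlations carry both the IL-4 response and the difference between experiments, and they are given as descriptions.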

How the data were processed

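RNA of 18 macrophage cultures was hybridised to 1-colour Agilent arrays. Per the file headers, the deposited scanner files hold spot intensities extracted by Agilent Feature Extraction 9.5.1, background-subtracted and spatially detrended, with flags for spots well above background. The series table holds log2 values deposited by the authors, which matched each array's log2 level minus that of the Irf4+/- mock array of its experiment (lowest correlation 0.9999 over 23611 probes) and served as an alternative.

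Here, log2 of the processed intensity minus log2 of the array's 75th percentile was computed, outlier-flagged spots were left out and spots of a probe averaged. A probe was kept if well above background on all 3 arrays of a group, and the brightest kept probe stood for its gene. Symbols were updated through RefSeq accessions and synonyms. Group means were fitted over 18 arrays with limma 3.58.1 in R 4.3.3, with Benjamini-Hochberg adjustment over 15285 genes, and adjusted p under 0.05 was called. Same-letter arrays of different groups deviated together (r from 0.444 to 0.871 over 45 pairs), and the design describes 3 independent experiments, so the letters pair the samples. The number of arrays limits the precision. Named were the 5 members, Irf4, list genes past the threshold (Ccl7, Ccl2, Ccl12, Ccr3, Chil3 and undetected receptors were added after their values were seen), and for each tested member the 3 genes with the highest Pearson correlation. Members and lists were chosen with earlier results of these data known. The fit was tested on simulated data whose arrays varied independently, so this did not cover the shared deviations of same-letter arrays. Shares of genes highest in an experiment were counted after the values were seen. Alternatives covered scaling, background correction, the filter, blocks and each array left out of the fit without a block. Ccl24 and Ccl11 have no promoter entry in the table used. The counts of the receptor list are not reported here.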

Additional observations from a re-analysis of the deposited data

How the results depend on the processing

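Ccl24 and Ccl8 kept the sign of their difference after IL-4 under every alternative run, while its size and the number of the 2 that passed varied. It fell from 2 to 1 at 4 h in Irf4+/- cells with normexp background correction, and from 2 to 1 in all 4 IL-4 comparisons when only the groups compared were fitted. In Irf4-/- cells it was 1 at 4 h with median scaling or no filter on dim probes, and 0 at 4 h and 0 at 18 h with normexp; normexp without spots far below their local background kept both calls. Leaving out 1 array at a time, without a block, gave 1 to 2 calls at 4 h in Irf4+/- cells. In Irf4-/- cells it gave 0 to 1 at 4 h and 0 to 2 at 18 h. From 18 h against 4 h in Irf4-/- cells the count rose from 0 to 1 with the slide as a fixed or a random block. The replicate block, which pairs the arrays by experiment, changed no call of a chemokine: 2 were called in each IL-4 comparison and 0 in the others. It raised the genes called among all 15285 from 658 to 2812, 640 to 2402, 605 to 2814 and 551 to 2872 in the 4 IL-4 comparisons, and from 0 to 5, 0 to 4 and 4 to 69 between genotypes in mock, 4 h and 18 h cultures. Normexp moved the median of all genes at 4 h to 0.17 in Irf4+/- and -0.13 in Irf4-/- cells. The cause was not tested in any of these cases.

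Signs turned only for differences that passed no test. With normexp these were, in Irf4-/- cells, Ccl17 against mock at 4 h (-0.23) and 18 h (-0.12), 18 h against 4 h for Ccl24 (-0.035) and Ccl17 (0.69) in Irf4+/- and Ccl17 (0.12) in Irf4-/- cells, and the genotype difference in mock cultures (0.38 for Ccl24, 0.64 for Ccl17, 0.59 for Ccl8). The genotype difference of Ccl17 in mock, 4 h and 18 h cultures became 0.46, 0.37 and 0.33 with a fixed slide block and 0.17, 0.017 and 0.050 with a random one, and that of Ccl8 became 0.51, 0.13 and 0.32 with the scan day as a block. In mock cultures it was 0.0087 for Ccl17 with quantile normalization and 0.0030 for Ccl8 with median scaling. Without experiment A, Ccl24 at 18 h against 4 h in Irf4+/- cells was -0.15, Ccl8 between mock genotypes 0.044, Ccl17 between genotypes at 18 h 0.0043 and its difference in response at 18 h 0.011. The difference in response was 0.062 for Ccl24 at 4 h over the mean of its probes, and 0.058 at 4 h and 0.13 at 18 h for Ccl17 with normexp without the dimmest spots. Slide and scan day blocks, experiment A left out and this last correction were added after seeing the data.

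Leaving out 1 array gave the following ranges for such differences. Ccl17 after 18 h of IL-4 ran from -0.17 to 1.01 in Irf4+/- and from -0.046 to 0.81 in Irf4-/- cells. For 18 h against 4 h, Ccl24 ran from -0.81 to 0.98 and from -1.15 to 0.48 in the 2 genotypes, and Ccl17 from -0.96 to 0.39 and from -0.66 to 0.45. Between genotypes, Ccl17 ran from -0.44 to 0.20 in mock, -0.91 to 0.33 at 4 h and -0.72 to 0.50 at 18 h. Ccl8 ran from -0.65 to 0.58, -1.12 to 0.069 and -0.93 to 0.42, and Ccl24 at 4 h from -1.59 to 0.038. The difference in response at 4 h ran from -0.96 to 0.66 for Ccl24, -0.78 to 0.46 for Ccl17 and -1.07 to 0.18 for Ccl8, and at 18 h from -1.50 to 0.32, -0.59 to 0.63 and -0.89 to 0.53.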
